A study of Mus musculus with 24 samples.

Results

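The comparison asked whether CBE changed cortical gene expression by the same amount in SV129 mice as in C57 mice. It was built from 12 of the 24 arrays in the series, 3 in each of 4 groups: SV129 mice given phosphate-buffered saline (PBS), SV129 mice given CBE, C57 mice given PBS and C57 mice given CBE. The other arrays were from FVB and C3H mice given PBS or CBE, at the same age, dose and days of treatment. They enter the fit through the shared estimate of spread, and the FVB arrays also gave 1 gene list. For each gene the difference is the SV129 change (mean of CBE minus mean of PBS, log2) minus the C57 change, so a value below 0 means that the SV129 change was the lower. CBE, conduritol B-epoxide, blocks the lysosomal enzyme glucocerebrosidase and serves here as a chemically induced model of neuronopathic Gaucher disease, while PBS mice are the healthy controls. All 12 SV129 and C57 mice were males aged 18 days, injected intraperitoneally from day 8 to day 18, the CBE groups with 25 mg per kg per day. The C57 strain was C57BL/6JOlaHsd, and no substrain of SV129 is given in the sources used here. The tissue was cortex, described once as removed with a spatula and once as the frozen 1 mm coronal section that holds it, so all cell types of that tissue contribute to a value. The model is chemical, so neither strain carries a glucocerebrosidase mutation by its label, and how far the enzyme was inhibited in each strain is not given in the sources used here. Labels number the mice within a group but do not say whether they came from separate litters, so p-values measure only the spread between these samples.

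Glucocerebrosidase splits glucosylceramide, and when it is blocked that lipid and its deacylated form build up in neurons and macrophage-like cells. In the brain this is followed by activation of microglia and astrocytes and by a type I interferon response. Interferons bind receptors on the cell surface, and the signal acts on a DNA element, the interferon-stimulated response element (ISRE), near the start of antiviral genes. Those genes include Rsad2 (viperin, which makes a chain-terminating nucleotide), Ifit1 (which binds viral RNA caps), Isg15 (a ubiquitin-like modifier) and Cxcl10 (a chemokine that draws T cells).

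Neuronal and glial markers of cortex were present on all 12 arrays. Slc17a7, the vesicular glutamate transporter of cortical excitatory neurons, lay between 11.0 and 11.4 on the log2 scale, and the astrocyte transporter Slc1a3 lay between 10.8 and 11.1. The microglial receptor P2ry12 lay between 8.38 and 8.83. Gad1, an interneuron marker, lay only between 4.49 and 5.16, close to the median of all values, 4.18, and the neutrophil markers S100a8 and S100a9 lay below that median. The medians of the 3 SV129 PBS arrays (4.14 to 4.17) lay below those of the 3 SV129 CBE arrays (4.19 to 4.22), whereas the 6 C57 arrays lay between 4.19 and 4.21. Xist was low (3.26 to 3.39) and the Y-linked Eif2s3y was high (7.03 to 7.45) on all 12 arrays, as the male labels say.

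The difference in CBE change passed an adjusted p of 0.05 (limma, Benjamini-Hochberg over 22180 genes) for 8 genes, which is 0.0361% of those tested. In 6 of them (0.0271% of genes tested) the SV129 change was the lower and in 2 (0.00902%) the higher; centring each array on its median gave 9 lower and 1 higher, and quantile normalization gave 7 and 1. At an unadjusted p below 0.05 there were 1149 genes with the lower change in SV129 (5.18%) and 869 with the higher (3.92%). Within the strains, 70 genes rose with CBE in C57 (0.316%) and 2 fell, while in SV129 3 genes rose (0.0135%) and 22 fell (0.0992%). The SV129 split was 7 and 136 after median centring, 4 and 15 after quantile normalization, and 43 and 176 without SV129 PBS replicate 1. The 6 lower genes were Rsad2, Cxcl10, Ifi30, Rnf213, Itga4 and 1 unnamed RNA clone, and the 2 higher genes were Taar7e and Psg20.

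The count depended on arrays of another strain, C3H, which enter the fit through the shared estimate of spread and not through the contrast. On replicate 1 of the C3H mice given CBE, Gpnmb, a glycoprotein of lipid-laden phagocytes, was at 7.67, against 4.13 and 4.31 on the other 2 arrays of its group. Lilrb4a, an inhibitory receptor of myeloid cells, was at 9.43 there, against 5.55 and 5.90. Without that array 45 genes passed, 42 lower in SV129 (0.189%) and 3 higher (0.0135%), among them all 8 of the genes above; in that fit 133 genes rose in C57 (0.6%) and 7 in SV129 (0.0316%). A fit of the 12 arrays alone called 6 genes, all lower in SV129, of which 3 were among the 8. With that C3H array left out, leaving out each of the 12 arrays in turn as well gave between 16 and 58 genes, between 15 and 54 of them lower in SV129. With it kept, leaving out 1 of the 12 arrays gave between 2 and 16.

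Rsad2 had the smallest p of all genes. Its log2 signal was 4.53, 4.34 and 4.43 on the SV129 PBS arrays and 4.70, 4.71 and 4.85 on the SV129 CBE arrays. In C57 it was 4.55, 4.51 and 4.74 with PBS and 5.77, 5.97 and 6.15 with CBE. The 3 C57 CBE arrays were thus the only ones above 5, and each exceeded every SV129 CBE array. The change was 0.32 in SV129, which did not pass (adjusted p = 0.162), and 1.36 in C57 (adjusted p = 9.61e-08), a 2.57-fold rise. The difference was -1.04 ± 0.139 (SE, limma; 95% confidence interval -1.33 to -0.76; adjusted p = 0.00456). It passed in all 21 alternatives run for single genes, with adjusted p between 0.000241 and 0.0322.

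Cxcl10 had the largest called difference below 0. The SV129 signals were 3.59, 3.55 and 3.58 with PBS and 4.36, 4.35 and 4.32 with CBE. Those of C57 were 3.83, 3.73 and 4.05 with PBS and 5.95, 6.39 and 7.15 with CBE. CBE arrays stood above PBS arrays in both strains, and the C57 CBE arrays stood above all others. The change was 2.62 in C57 (6.16-fold, adjusted p = 1.06e-06) and 0.77 in SV129 (1.70-fold, adjusted p = 0.143), and the difference was -1.85 ± 0.315 (SE; adjusted p = 0.0347). It lost the call in most single-array omissions, and the 12 arrays alone gave 0.0507.

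**Figure D1:**
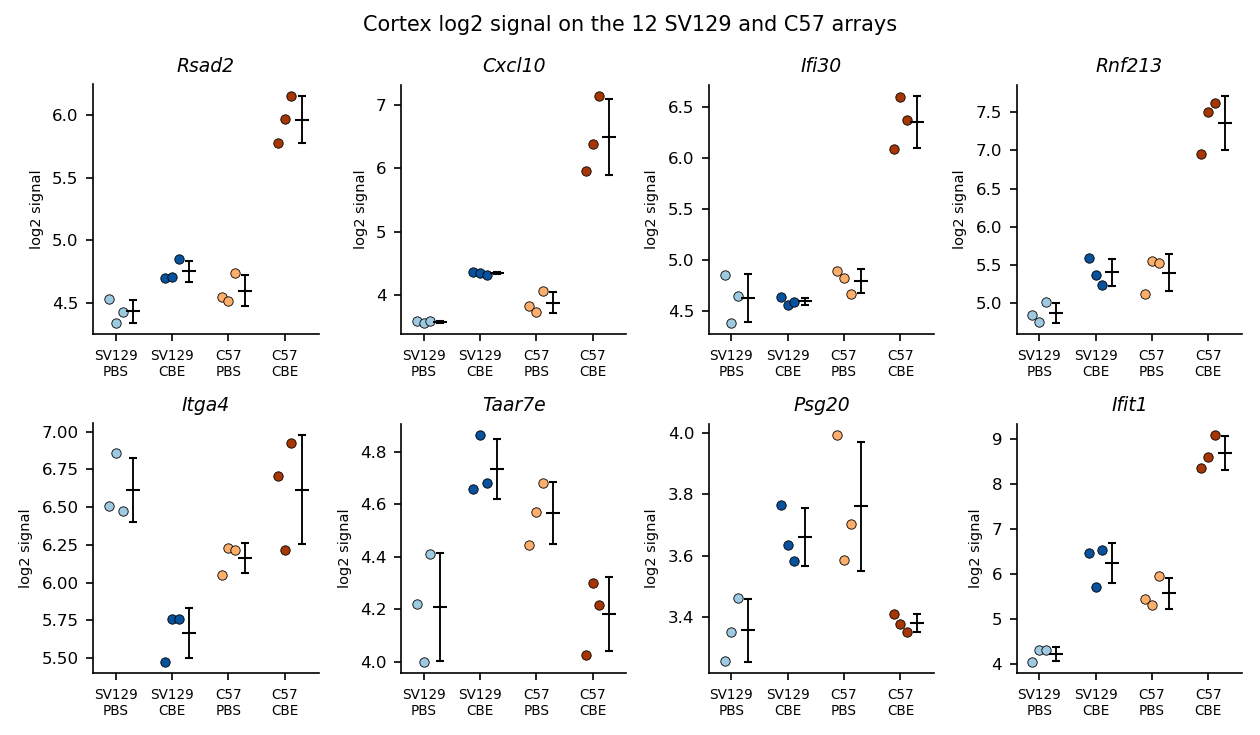
Log2 signal (vertical axis) of 8 genes on each of the 12 arrays; every point is 1 mouse, and the bar beside each group is the mean ± SD (n = 3). In the 4 upper panels the C57 CBE arrays lie above all others, Itga4 is lowest on the SV129 CBE arrays, and Taar7e and Psg20 run in opposite directions in the 2 strains; Ifit1 is shown as a gene that rose in both.

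For Rsad2, Cxcl10, Ifit1 and Isg15, the antiviral genes introduced above, the 250 bases before the start sites are shown, with matches to the ISRE core in capitals. Of these, Rsad2 and Cxcl10 passed in the difference and Ifit1 and Isg15 did not. The sequences are the reference strain's, from RefSeq (GRCm38.p6), and not those of SV129 or C57BL/6JOlaHsd. Each is written 5′ to 3′ along the gene, from chr12:26456453-26456702 (minus strand) for Rsad2, chr5:92348890-92349139 (minus) for Cxcl10, chr19:34640639-34640888 (plus) for Ifit1 and chr4:156200819-156201068 (minus) for Isg15.
Rsad2: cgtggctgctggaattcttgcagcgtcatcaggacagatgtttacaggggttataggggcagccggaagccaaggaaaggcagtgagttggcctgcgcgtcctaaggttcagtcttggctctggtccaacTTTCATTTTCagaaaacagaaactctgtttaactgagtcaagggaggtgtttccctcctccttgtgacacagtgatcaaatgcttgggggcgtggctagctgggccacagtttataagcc
Cxcl10: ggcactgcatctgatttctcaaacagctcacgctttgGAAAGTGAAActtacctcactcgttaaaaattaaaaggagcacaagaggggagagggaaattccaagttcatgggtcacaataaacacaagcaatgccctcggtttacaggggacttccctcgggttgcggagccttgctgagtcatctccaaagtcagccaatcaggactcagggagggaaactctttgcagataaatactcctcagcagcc
Ifit1: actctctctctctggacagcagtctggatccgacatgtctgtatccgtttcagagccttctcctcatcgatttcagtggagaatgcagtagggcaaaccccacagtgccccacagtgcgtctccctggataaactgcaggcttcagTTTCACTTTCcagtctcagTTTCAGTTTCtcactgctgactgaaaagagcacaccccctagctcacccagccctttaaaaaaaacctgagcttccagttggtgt
Isg15: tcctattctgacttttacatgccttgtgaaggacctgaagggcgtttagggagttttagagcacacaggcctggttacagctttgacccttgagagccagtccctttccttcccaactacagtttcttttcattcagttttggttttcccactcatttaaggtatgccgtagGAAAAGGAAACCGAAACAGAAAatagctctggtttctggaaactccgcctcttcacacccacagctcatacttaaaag
The ISRE core searched was GAAA, any 2 bases and GAAA again, on both strands, with overlapping matches each counted. Rsad2 and Cxcl10 held 1 match each, Ifit1 held 2 and Isg15 held 3 overlapping ones, and those of Rsad2 and Ifit1 read on the opposite strand. Such a match occurred in the 250 bases of 3.46% of the 27025 genes in the promoter table and in 10 of the 28 interferon-stimulated genes below that the table holds (35.7%). The windows of Ifi30, Rnf213 and Itga4, which also passed in the difference, held none. A match describes letters only and is not a binding site.

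Ifi30 encodes a lysosomal thiol reductase that unfolds antigens for presentation on MHC class II. Its SV129 signals were 4.85, 4.39 and 4.65 with PBS and 4.64, 4.57 and 4.59 with CBE, and its C57 signals were 4.89, 4.83 and 4.67 with PBS and 6.09, 6.60 and 6.37 with CBE. The SV129 CBE arrays lay inside the range of the SV129 PBS arrays, and all C57 CBE arrays lay above both. The change was -0.03 in SV129 (adjusted p = 0.967) and 1.56 in C57 (2.94-fold, adjusted p = 0.000105). The difference was -1.59 ± 0.271 (SE, adjusted p = 0.0347) and passed in 11 of 21 alternatives. The MHC class II list as a whole did not follow Ifi30. Of its 7 measured members, Ifi30 included, 4 had a difference below 0 and 3 above, with a median of -0.06.

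Rnf213, a very large ubiquitin ligase with antimicrobial activity, had SV129 signals of 4.85, 4.76 and 5.02 with PBS and 5.6, 5.38 and 5.24 with CBE. In C57 it was 5.13, 5.56 and 5.52 with PBS and 6.95, 7.49 and 7.62 with CBE. SV129 mice on CBE thus sat at the level of C57 mice on PBS. The change was 1.95 in C57 (3.87-fold, adjusted p = 2.72e-06) and 0.53 in SV129 (adjusted p = 0.196), with a difference of -1.42 ± 0.252 (SE; adjusted p = 0.0413) that passed in 8 of 21 alternatives.

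Itga4 fell in SV129. It encodes the integrin alpha-4 subunit, which lets leukocytes attach to vessel walls. The SV129 signals were 6.51, 6.86 and 6.47 with PBS and 5.47, 5.76 and 5.76 with CBE, a fall to 0.518 of the PBS level (log2 change -0.95, adjusted p = 0.00447). The C57 signals were 6.05, 6.23 and 6.22 with PBS and 6.71, 6.22 and 6.93 with CBE, which overlap at 6.22 and did not pass (0.45, adjusted p = 0.406). The difference was -1.40 ± 0.200 (SE; 95% confidence interval -1.82 to -0.98; adjusted p = 0.00712) and passed in 19 of 21 alternatives, but not in the 12-array fit (adjusted p = 0.0507) or with unmoderated variances (0.0883).

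Both genes with the higher SV129 change lay low on the scale. Taar7e, a trace amine-associated receptor known from olfactory neurons, was at 4.22, 4.0 and 4.41 (SV129 PBS) and 4.66, 4.87 and 4.68 (SV129 CBE), against 4.45, 4.57 and 4.68 (C57 PBS) and 4.03, 4.30 and 4.22 (C57 CBE). Psg20, a pregnancy-specific glycoprotein, ran from 3.26 to 3.46 in SV129 PBS, 3.58 to 3.77 in SV129 CBE, 3.59 to 4.0 in C57 PBS and 3.35 to 3.41 in C57 CBE. Neither gene's change passed within a strain, and Psg20 was lower in SV129 PBS than in C57 PBS (-0.41, adjusted p = 0.00514). The differences were 0.91 ± 0.161 (SE; adjusted p = 0.0413) and 0.69 ± 0.123 (SE; adjusted p = 0.0416), and they passed in 7 of 21 and 5 of 20 alternatives. At these levels near or below the median of all values, cross-hybridisation was not tested.

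Interferon-stimulated genes had the lower change in SV129 throughout the list. Of 40 listed genes, 37 were measured, and all 37 had a difference below 0 (49.4% of all genes did). The median difference was -0.78, against 0.00 over all genes tested, with a median change of 0.23 in SV129 and 0.97 in C57. Only Rsad2 passed, 1 of 37 against the 0.0271% of all genes; without the C3H array 9 passed, against 0.189%. In 30 of the 37 the changes on all 3 SV129 CBE arrays lay below those on all 3 C57 CBE arrays, an ordering found in 14.5% of all genes. In C57 24 of the 37 rose (0.316% of all genes), and in SV129 Ifit1 and Isg15 did (0.0135%). The list's median on single CBE arrays was 0.19, 0.23 and 0.30 in SV129 and 0.90, 0.97 and 1.01 in C57, so the arrays of the 2 strains did not overlap.

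Ifit1 had the largest change above 0 of all genes in both strains. Its signals were 4.05, 4.31 and 4.31 (SV129 PBS), 6.48, 5.72 and 6.54 (SV129 CBE), 5.44, 5.31 and 5.97 (C57 PBS) and 8.36, 8.60 and 9.10 (C57 CBE). It rose 4.06-fold in SV129 (adjusted p = 0.00447) and 8.67-fold in C57 (adjusted p = 5.49e-06). The difference of -1.09 ± 0.425 (SE; 95% confidence interval -1.98 to -0.21) did not pass (adjusted p = 0.448). Isg15 rose 1.95-fold in SV129 and 3.55-fold in C57, and its difference of -0.86 (95% confidence interval -1.42 to -0.31) did not pass either (adjusted p = 0.33).

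Several further interferon genes, chosen after their values were seen, passed in the difference once the C3H array was left out. Bst2, tetherin, which holds budding virus on the cell surface, had a change of 0.18 in SV129 and rose by 2.36 in C57, and the difference of -2.18 had adjusted p = 0.105, or 0.00244 without that array and 0.0322 in the 12 arrays alone. Irf7, a transcription factor that amplifies interferon production, had a change of 0.48 in SV129 and rose by 1.89 in C57 (difference -1.41, adjusted p = 0.28, or 0.0131 without it and 0.0322 in the 12 arrays alone). Ifih1, a sensor of double-stranded RNA, had a change of 0.39 in SV129 and rose by 1.66 in C57 (-1.27, adjusted p = 0.199, or 0.00935 without it and 0.0569 in the 12 arrays alone). Eif2ak2 (PKR), Ddx58 (RIG-I), Oasl2 and Parp14 were called lower without that array too, but not in the 12 arrays alone (adjusted p = 0.0791, 0.0769, 0.069 and 0.0857). At the other end, Ifit3 had a difference of -0.10 and Phf11d of -0.10, and neither passed in either strain.

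**Figure D2:**
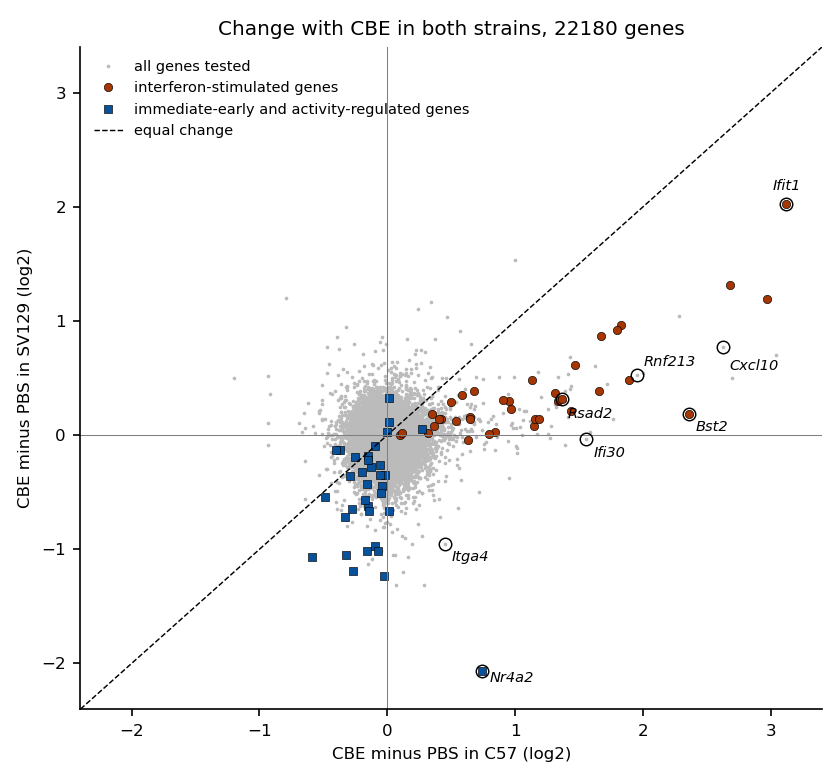
Change with CBE in C57 (horizontal) and in SV129 (vertical), both as log2 CBE minus PBS, with 1 grey point for each of the 22180 genes, the 37 interferon-stimulated genes as circles and 34 activity-regulated genes as squares. All 37 circles lie below the dashed line of equal change, and 28 of the 34 squares do; open rings mark labelled genes.

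The listed interferon receptors and signalling proteins had smaller differences. Of 14 measured members of 15, none passed in the difference or in either strain, and the median difference was -0.08. The 2 smallest p-values were those of Irf3 (-0.34, 95% confidence interval -0.63 to -0.06) and Tyk2 (-0.32, -0.60 to -0.04), a transcription factor and a receptor kinase of the pathway. The pattern recognition receptors held 18 measured members. Of these, Tlr3, the endosomal sensor of double-stranded RNA, rose in C57 by 0.50 (adjusted p = 0.00364) and had a change of 0.03 in SV129. Its difference was -0.47 ± 0.115 (SE, adjusted p = 0.233). Both lists leave out Irf7, Ifih1 and Ddx58, which rose in C57 (adjusted p = 0.00134, 0.000199 and 0.000338) and are described above. The smaller differences thus hold only for the genes placed in these lists.

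PBS levels of some of these genes also differed between the strains. Between SV129 PBS and C57 PBS, 1712 of 22180 genes differed (7.72%), 710 lower in SV129 (3.2%) and 1002 higher (4.52%); after centring on array medians the split was 578 and 1456. Of the 37 interferon-stimulated genes 9 were lower in SV129 PBS and none was higher, with a median of -0.20. SV129 minus C57 was -1.35 for Ifit1 (adjusted p = 0.00681), -0.64 for Isg15 (adjusted p = 0.0383) and -1.74 for Bst2 (adjusted p = 0.00117), whereas Rsad2 and Cxcl10 did not differ past the threshold (-0.17 and -0.30). With CBE the median of SV129 minus C57 over the list was -1.05. Since a probe can bind less well to another strain's sequence, a strain difference in level cannot be told apart from one in probe binding; its part in the difference of changes was not tested.

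Interferon-induced GTPases, which attack vacuoles of intracellular pathogens, showed the same order of strains. Of 11 measured members of 15, 10 had a difference below 0, none passed in either fit, and the median was -0.88 (0.21 in SV129, 1.09 in C57). In C57 5 of the 11 rose (0.316% of all genes) and in SV129 none (0.0135%). Irgm2 ran from 3.53 to 3.70 (SV129 PBS), 3.81 to 3.90 (SV129 CBE), 3.89 to 4.45 (C57 PBS) and 5.16 to 5.57 (C57 CBE), so only C57 CBE arrays exceeded 5. Its rise in C57 was 2.12-fold (adjusted p = 0.000602), and its difference of -0.88 ± 0.217 (SE) did not pass (adjusted p = 0.243). Gbp7 rose 2.42-fold in C57 and was at 1.06 of its PBS level in SV129 (difference -1.19, adjusted p = 0.278). Gbp6 was the only member above 0 (0.04).

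MHC class I genes, which present peptides from inside the cell, had the larger changes in C57. Of 15 measured members, 12 had a difference below 0, 9 at an unadjusted p below 0.05 (5.18% of all genes), and none passed the adjusted threshold; 4 rose in C57 (0.316% of all genes) and none in SV129 (0.0135%). The median change was 0.04 in SV129 and 0.42 in C57. H2-Q4 was at 4.83, 4.42 and 4.48 (SV129 PBS), 4.18, 4.14 and 4.29 (SV129 CBE), 4.87, 4.33 and 4.39 (C57 PBS) and 5.38, 5.55 and 5.50 (C57 CBE). It lay highest in C57 with CBE and lowest in SV129 with CBE, and its difference of -1.32 ± 0.265 (SE) had adjusted p = 0.101, 0.0298 without the C3H array and 0.0483 in the 12 arrays alone. Class I genes resemble each other, so their probe sets can share signal. Whether H2 haplotypes differ between these strains was not tested. Tapbp, which loads peptides, rose 1.54-fold in C57 (adjusted p = 0.0188) with a difference of -0.59 (adjusted p = 0.294). B2m, the shared light chain, was between 9.67 and 10.1 in SV129 PBS, 9.58 and 9.93 in SV129 CBE, 11.1 and 11.2 in C57 PBS and 11.7 and 11.98 in C57 CBE, and its difference of -0.88 did not pass (adjusted p = 0.448).

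Among 24 chemokines and cytokines, Cxcl10 passed, and 3 did without the C3H array (0.189% of all genes). In this list 5 members rose in C57 (0.316% of all genes) and none in SV129 (0.0135%); the median difference was -0.17. Ccl5, which attracts T cells, came next (chosen after its values were seen): it had a change of 0.50 in SV129 and rose by 2.70 in C57, and the difference of -2.20 ± 0.406 (SE) had adjusted p = 0.0555, or 0.0156 without that array and 0.157 in the 12 arrays alone. Cxcl13, which draws B cells, went the other way. Its signals were 6.67, 5.12 and 5.03 (SV129 PBS), 7.29, 6.48 and 7.67 (SV129 CBE), 4.69, 4.96 and 5.06 (C57 PBS) and 5.46, 5.87 and 6.39 (C57 CBE). SV129 PBS replicate 1 lay above the other PBS arrays and above an SV129 CBE array. The changes were 1.54 and 1.00, neither past the threshold, and the difference of 0.54 had a 95% confidence interval from -0.52 to 1.59. As examples of interleukin and tumour necrosis factor transcripts, Il6 (-0.04), Tnf (0.05) and Il1b (0.18) had small differences. In this list 10 of the 24 members had means below the median of all values, where a change can be hard to see.

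Lists of microglial and phagocyte genes also had medians below 0. In bulk tissue, fewer cells of a type and less RNA per cell cannot be told apart. Disease-associated microglial genes, which mark phagocytic microglia around damage, had 19 of 21 differences below 0 and a median of -0.41 (0.12 in SV129, 0.46 in C57). None was called, or 3 without the C3H array, where 0.189% of all genes were called lower. On single CBE arrays the list's median was 0.10, 0.11 and 0.17 in SV129 and 0.30, 0.43 and 0.71 in C57. Gpnmb was at 3.82, 3.96 and 4.10 in SV129 CBE and 4.95, 5.58 and 5.76 in C57 CBE, against 3.85 to 4.07 and 4.10 to 4.29 with PBS. Its difference of -1.24 ± 0.734 (SE) had adjusted p = 0.639, with 0.0769 in the 12 arrays alone and 0.00784 without the C3H array, on which it stood apart as given above. Cst7, a cathepsin inhibitor, had a difference of like size (-1.30, adjusted p = 0.441, or 0.0409 without that array and 0.069 in the 12 arrays alone). Apoe, the lipid carrier, had a difference of 0.27 (95% confidence interval 0.05 to 0.50; adjusted p = 0.47).

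Receptors for antibodies and inhibitory ligands on phagocytes had 12 of 16 differences below 0 and a median of -0.48. Lilrb4a had the largest: its signals were 5.41, 4.71 and 4.77 in SV129 CBE and 6.62, 7.50 and 7.90 in C57 CBE, with 3.98 to 4.46 in SV129 PBS and 4.15 to 4.44 in C57 PBS. It rose 8.23-fold in C57 (adjusted p = 0.0217) and was 1.62-fold higher in SV129 (adjusted p = 0.67). The difference of -2.34 ± 0.844 (SE) had adjusted p = 0.426, with 0.00784 without the C3H array and 0.0507 in the 12 arrays alone. Cybb, the catalytic subunit of the phagocyte NADPH oxidase, rose 4.0-fold in C57 and was 1.46-fold higher in SV129 (difference -1.46, adjusted p = 0.42, or 0.0131 without that array and 0.0883 in the 12 arrays alone); all 5 measured oxidase subunits had differences below 0, with a median of -0.26.

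Complement genes, whose products tag synapses and debris, had 11 of 13 differences below 0 and a median of -0.48, and none passed. C3ar1 was at 4.37, 4.35 and 4.21 in SV129 CBE and 5.29, 5.54 and 5.43 in C57 CBE, against 4.06 to 4.38 and 4.32 to 4.69 with PBS (difference -0.87, adjusted p = 0.52, or 0.00784 without the C3H array and 0.0769 in the 12 arrays alone). C1qa, C1qb and C1qc, the recognition subunits, had differences of -0.52, -0.58 and -0.48. Homeostatic microglial genes stood closer together: 10 of 13 were below 0, the median was -0.16, and neither strain had a called gene. On the arrays their medians overlapped, between -0.06 and 0.12 in SV129 CBE and between 0.08 and 0.21 in C57 CBE. Markers of neutrophils and lymphocytes lay mostly below the median of all values (14 of 17 and 16 of 17) and had median differences of 0.02.

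**Figure D3:**
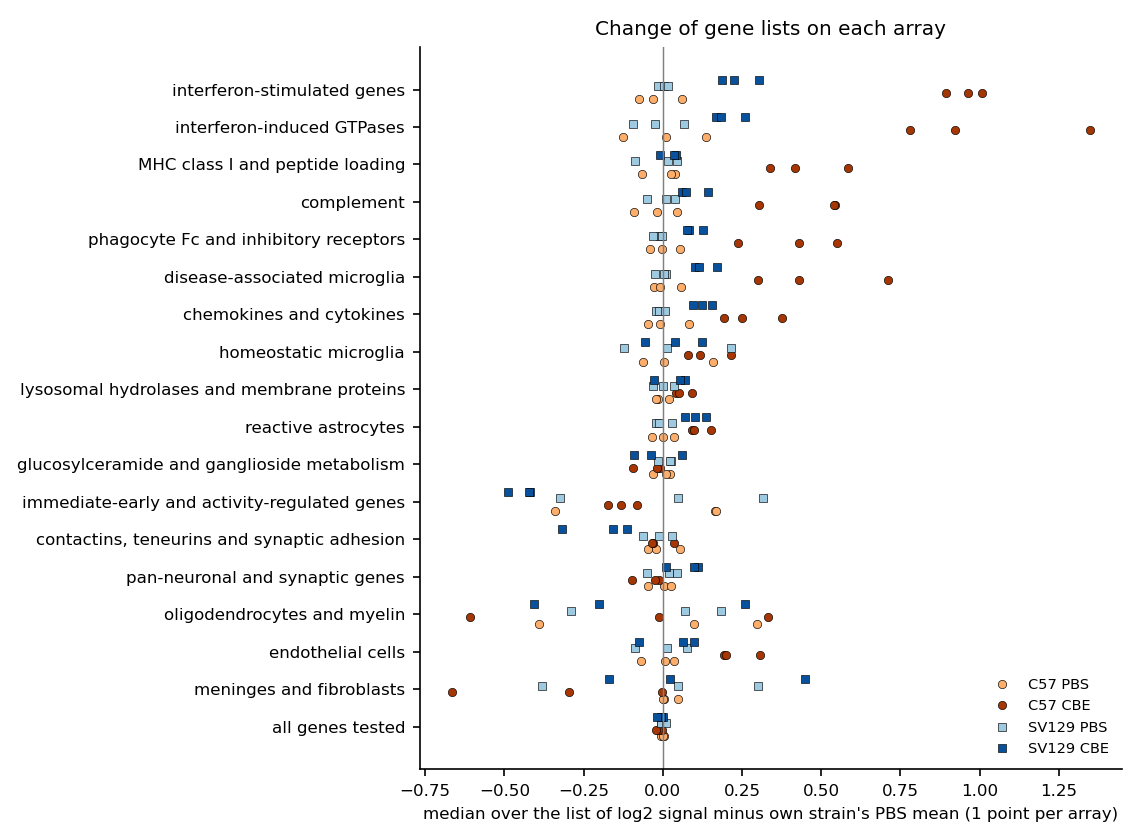
For each gene list, the median over its measured members of log2 signal minus the mean of the same strain's PBS arrays, with 1 point per array (SV129 squares, C57 circles, PBS light, CBE dark). SV129 and C57 CBE arrays do not overlap for the 7 uppermost lists; activity-regulated and adhesion lists lie lowest on the SV129 CBE arrays, and the lowest row gives all genes tested.

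Genes of the pathway that CBE acts on differed little. Of 36 measured lysosomal hydrolases and membrane proteins 26 had a difference below 0, with a median of -0.08. None passed, and 1 did without the C3H array (0.189% of all genes). That gene was Ctss, a cathepsin that microglia use in antigen presentation, at 9.0, 8.70 and 9.18 in SV129 CBE and 10.3, 10.4 and 10.6 in C57 CBE, with 8.86 to 9.19 and 9.33 to 9.76 in PBS. Its difference of -0.99 ± 0.338 (SE) had adjusted p = 0.41, or 0.0261 without that array and 0.114 in the 12 arrays alone. Of 27 genes of glucosylceramide and ganglioside metabolism none was called in the difference or in either strain, and the median was 0.00. Gba2, the non-lysosomal glucosylceramidase, had a difference of 0.11 (95% confidence interval -0.11 to 0.33). Ugcg, which makes glucosylceramide, had -0.16 (-0.46 to 0.14). Asah1, acid ceramidase, had -0.40 (-0.69 to -0.12; adjusted p = 0.398).

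Reactive astrocyte genes had median changes of 0.10 in both strains. Of the 26 measured, 15 had a difference below 0, with a median of -0.09. The 1 of 26 that passed in the difference (0.0271% of all genes were called lower) was Cxcl10, which is on that list too. Without the C3H array 2 passed (0.189% of all genes), Cxcl10 and Serpina3n, the latter described at the end. In C57 3 of the 26 rose (0.316% of all genes) and in SV129 none (0.0135%). Gfap, the astrocyte intermediate filament, was at 6.79, 5.23 and 5.73 (SV129 PBS), 6.73, 6.67 and 6.40 (SV129 CBE), 6.56, 6.85 and 6.67 (C57 PBS) and 7.95, 8.13 and 8.30 (C57 CBE). In SV129 the PBS arrays spread widely and replicate 1 exceeded every CBE array. Gfap rose 2.70-fold in C57 (adjusted p = 0.0141) and was 1.61-fold higher in SV129 (adjusted p = 0.269), with a difference of -0.75 whose 95% confidence interval reached from -1.54 to 0.04.

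FVB arrays lie outside the contrast and gave a list of CBE-raised genes whose changes come from FVB mice, although the SV129 and C57 arrays share in the spread behind the calls. In FVB mice 30 genes rose with CBE (0.135% of those tested), and this list was added after results had been seen. Of the 30, 28 had a difference below 0, with a median of -0.88; the median change was 0.33 in SV129, 1.22 in C57 and 1.45 in FVB. Of these genes 18 rose in C57 (0.316% of all genes) and 2 in SV129 (0.0135%), and in 26 all SV129 CBE arrays changed less than all C57 CBE arrays (14.5% of all genes). Among the 30, 3 passed in the difference (0.0271% of all genes were called lower): Rsad2, Cxcl10 and Rnf213. H2-K1, a classical class I molecule, had changes of 0.01 in SV129 and 1.17 in C57, and Lgals3bp, a secreted scavenger-domain protein, of 0.92 and 1.80. The exceptions were Cxcl13 (0.54), which had changed most in FVB (4.37), and 1 predicted gene (0.15).

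**Figure D4:**
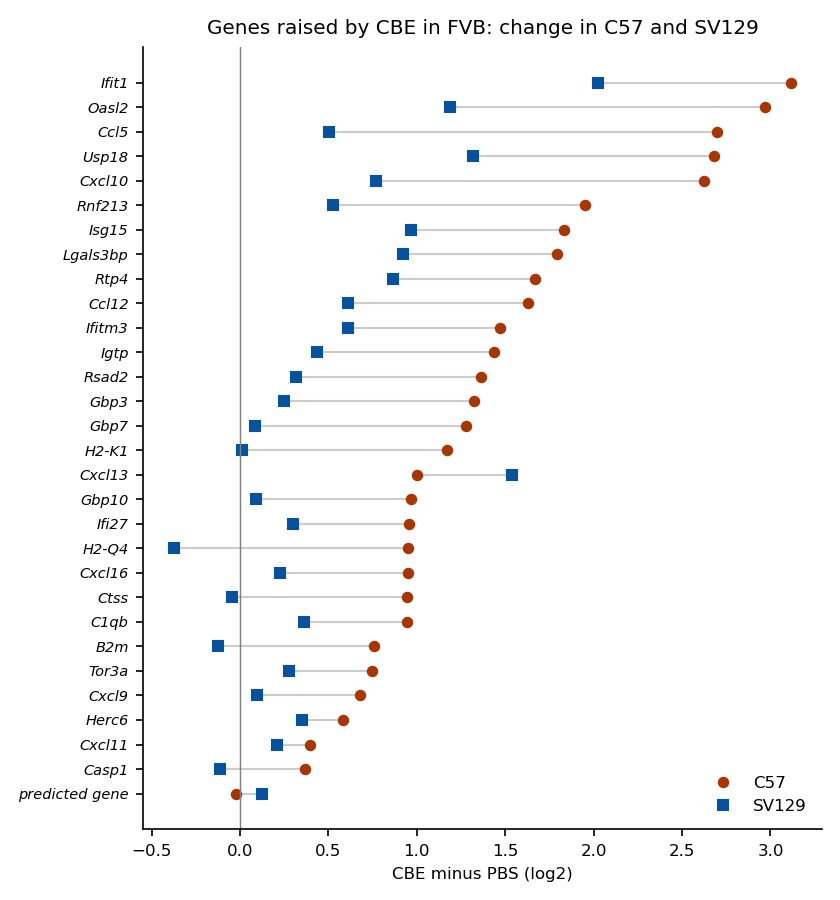
Change with CBE (horizontal axis, log2 CBE minus PBS) of the 30 genes that rose in FVB, in C57 (circles) and SV129 (squares), joined by a line for each gene and ordered by the C57 change. The SV129 square lies left of the C57 circle for all but Cxcl13 and 1 predicted gene.

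Other genes fell in SV129. Contactins, teneurins, netrin-G proteins and their partners join axons to target cells; 31 of 34 listed members were measured, 20 had a difference below 0 and 10 of these at an unadjusted p below 0.05 (5.18% of all genes). None passed, 2 passed without the C3H array (0.189% of all genes), and 3 fell in SV129 (0.0992% of all genes) and none in C57. Ntng1, netrin-G1, was at 8.65, 8.30 and 8.04 with PBS and 7.81, 7.33 and 7.39 with CBE in SV129, and between 7.25 and 7.50 on all 6 C57 arrays. SV129 CBE mice thus came near the C57 level from a PBS level 1.01 higher than in C57 (adjusted p = 3.27e-05). Ntng1 fell to 0.565 of its PBS level (adjusted p = 0.010), with a difference of -0.90 ± 0.186 (SE; adjusted p = 0.105, or 0.0398 without the C3H array and 0.211 in the 12 arrays alone).

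Cntn6, contactin-6, fell to 0.563 in SV129, from 7.58, 7.92 and 7.58 to 6.86, 6.59 and 7.14 (adjusted p = 0.00447), and stayed between 7.71 and 7.97 on the C57 arrays. Its PBS levels did not differ past the threshold between the strains (-0.23), and its difference of -0.73 ± 0.170 (SE) had adjusted p = 0.18. Tenm3, teneurin-3, fell by 0.90 in SV129 (adjusted p = 0.0281) and had a change of 0.14 in C57. Cntnap5b, a neurexin-family protein, had signals of 7.53, 6.95 and 7.22 (SV129 PBS), 6.60, 6.59 and 6.36 (SV129 CBE), 5.95, 6.41 and 6.38 (C57 PBS) and 6.68, 6.57 and 6.73 (C57 CBE). It differed by -1.13 ± 0.229 (SE; adjusted p = 0.103, or 0.0478 without the C3H array and 0.0769 in the 12 arrays alone).

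Activity-regulated genes, transcribed within minutes of neuronal firing or handling, had 28 of 34 differences below 0 and a median of -0.31 (-0.44 in SV129, -0.15 in C57). None passed in the difference, and Nr4a3 fell in SV129. Nr4a3, an orphan nuclear receptor, was at 6.54, 7.46 and 7.65 (SV129 PBS), 6.14, 5.61 and 6.19 (SV129 CBE), 7.59, 7.73 and 6.99 (C57 PBS) and 7.6, 7.39 and 7.25 (C57 CBE). The SV129 CBE arrays were the lowest of the 12 (change -1.24, adjusted p = 0.0436; difference -1.21 ± 0.335, SE, adjusted p = 0.278). Fos was at 5.54, 6.29 and 7.14 with PBS and 5.40, 5.07 and 5.46 with CBE in SV129 (difference -0.95, adjusted p = 0.521). Nr4a2 had the largest difference of any gene below 0, -2.81, but SV129 PBS replicate 1 (9.87) and C57 CBE replicate 2 (9.72) stood well above their groups and it did not pass (adjusted p = 0.28). The list's median on the SV129 PBS arrays ran from -0.32 to 0.32 around their mean and on the C57 PBS arrays from -0.34 to 0.17. The time from handling to dissection is not given in the sources used here and its part was not tested.

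**Figure D5:**
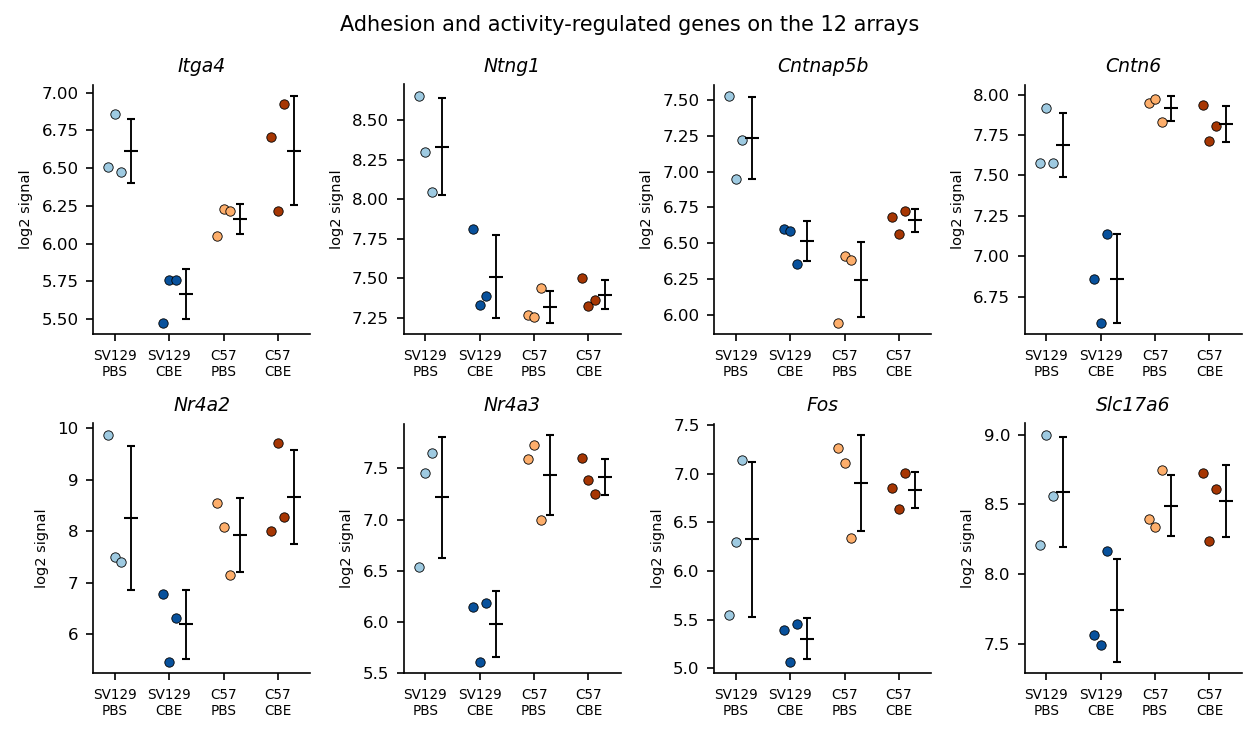
Log2 signal (vertical axis) of 8 adhesion, activity-regulated and regional genes on each of the 12 arrays; points are mice and bars are means ± SD (n = 3). The SV129 CBE arrays lie lowest for Itga4, Cntn6, Nr4a2, Nr4a3, Fos and Slc17a6, while for Ntng1 and Cntnap5b the SV129 PBS arrays stand above the rest.

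Regional markers were read beside these falls, since a slice can include neighbouring tissue. Slc17a6, the glutamate transporter of thalamic neurons that is also made by young cortical ones, was at 8.21, 9.0 and 8.56 in SV129 PBS and 7.56, 7.49 and 8.16 in SV129 CBE, and between 8.24 and 8.74 in C57 (difference -0.88, adjusted p = 0.317). Of the 23 thalamic markers, Slc17a6 and Ntng1 included, 10 were below 0 (49.4% of all genes) and 13 above, with a median of 0.01. At an unadjusted p below 0.05, 3 had the lower SV129 change (5.18% of all genes) and none the higher (3.92%). Ntng1 was the 1 marker called lower without the C3H array (0.189% of all genes), and 9 of the 23 had means below the median of all values. Medians were -0.03 for striatum and -0.04 for hippocampus. Markers of deep cortical layers had a median of -0.11, with list medians on the C57 PBS arrays from -0.35 to 0.33; the part of dissection was not tested.

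General neuronal genes were the opposite in sign and small. Of 26, 23 had a difference above 0, with a median of 0.10 and none called. Nrgn, a postsynaptic calmodulin-binding protein, had a difference of 0.36 (95% confidence interval 0.14 to 0.58; adjusted p = 0.317), and Camk2a, a synaptic kinase, 0.22 (0.03 to 0.41). Meningeal and fibroblast genes had 14 of 15 above 0 and a median of 0.31, with a median change of -0.28 in C57; on single arrays the list lay between -0.67 and 0.00 in C57 CBE and between -0.17 and 0.45 in SV129 CBE, which is a wide spread within each group. Endothelial genes had 12 of 16 below 0 and a median of -0.27, with C57 CBE arrays between 0.19 and 0.31 and SV129 CBE arrays between -0.07 and 0.10. Tek, the angiopoietin receptor, differed by -0.67 (adjusted p = 0.408). Acta2, the actin of vascular smooth muscle, rose 1.82-fold in C57 (adjusted p = 0.0322) and was at 1.01 of its PBS level in SV129 (difference -0.85, adjusted p = 0.318).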

How the data were processed

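RNA from cortex of 24 male mice was measured on 24 Affymetrix arrays; labels place 3 in each of 8 groups of strain and agent. Labels' protocols state 100 ng total RNA per sample. The authors deposited 1 log2 value per probe set and array; the log base was inferred from the highest value, 14.09. Per the submitters' processing notes Partek and RMA were used; no versions are named. The analysis began from that table.

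Of 41034 probe sets, 23521 had 1 gene symbol in the platform annotation, 1814 had several and 15699 had none. The probe set with the highest mean stood for a gene, leaving 22180 genes with no filter on dim ones. Some genes are not analysed here. limma 3.58.1 (R 4.3.3) fitted 8 group means to all 24 arrays (16 residual degrees of freedom, prior 5.10), two-sided, with Benjamini-Hochberg adjustment over 22180 genes and a threshold of 0.05. The contrast uses the 12 SV129 and C57 arrays; the others add only to the spread. An exact permutation of 3 against 3 arrays cannot give a p below 0.1, so calls lean on the shared spread. The fit was tested on simulated data, but that outcome is not given here and lends the calls no support. The number of arrays limits precision: the median SE was 0.14 for a difference and 0.0989 for a change within a strain.

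The 49 gene lists (1077 entries, 987 measured, 4 through an older symbol) and the members were chosen with earlier results of these data known, so list counts are descriptions. The naming rule took the 15 largest called differences each way (with the 5 of smallest p where under 5 passed), up to 6 called members of each pathway list or the 2 of smallest p, up to 2 from each cell or region list, and fixed genes; predicted genes, clones and receptor families were counted only. A name outside the rule is said to be chosen after its values were seen, or is given as an example of a list. Alternatives: centring, quantile normalization, the 12 arrays alone, unmoderated and trend moderation, a filter, averaged probe sets, a replicate block and single-array omissions.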

Additional observations from a re-analysis of the deposited data

Results flagged for a closer look

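In all, 7 named genes had a CBE change that differed between SV129 and C57 by the test of the difference itself (limma, adjusted p below 0.05). The SV129 change was lower for Cxcl10 (-1.85), Ifi30 (-1.59), Rnf213 (-1.42), Itga4 (-1.40) and Rsad2 (-1.04) and higher for Taar7e (0.91) and Psg20 (0.69). For each of these genes the changes on the 3 SV129 CBE arrays all lay on the same side of those on the 3 C57 CBE arrays. Over all genes, SV129 lay wholly below C57 in 14.5% and wholly above in 14.1%. The genes were picked by a test on these same arrays, so their ordering adds no separate evidence. Groups of 3 arrays were not searched by a rule for single outlying samples, although arrays that stood apart for some genes are described above.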

How the results depend on the processing

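Rsad2 passed in all 21 alternatives run for named genes and Itga4 in 19; Ifi30, Cxcl10, Rnf213, Taar7e and Psg20 lost the call in many but kept their sign. Of 102 named genes 1, the erythroid Slc4a1 (0.01 as reported), changed sign in 8 alternatives: -0.043 with median centring, -0.028 with quantile normalization, and between -0.068 and -0.018 in 6 single-array omissions, whose whole range was -0.068 to 0.076. The medians of interferon-stimulated genes ran from -0.87 to -0.68 over the alternatives and those of activity-regulated genes from -0.46 to -0.15.

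The count of called differences, 8 as reported, was 1 with unmoderated variances, 2 with the replicate block and 45 without C3H CBE replicate 1. Leaving out 1 of the 12 arrays gave 2 to 16, the most without SV129 PBS replicate 3 (16), SV129 CBE replicate 1 (13) or C57 CBE replicate 1 (13) and 2 to 4 without any of the other 9. Omitting a 12-array member together with that C3H array, an alternative chosen after seeing the data, gave 16 to 58. In SV129 the 25 called changes became 143 with median centring (136 lower), 7 with unmoderated variances, 39 with trend and robust moderation, 60 with the filter, 7 to 219 with 1 array left out (219 without SV129 PBS replicate 1, 7 without SV129 CBE replicate 2) and 12 to 212 with the C3H array left out too. In C57 the 72 became 113 in the 12-array fit, 36 with unmoderated variances, 136 without the C3H array, 30 to 75 with 1 array left out (30 without C57 CBE replicate 3) and 90 to 149 with both left out. With 1 array left out the PBS comparison, 1712, ran from 1017 (without C57 PBS replicate 2; 1128 without C57 PBS replicate 1) to 1772 (without C3H CBE replicate 1), and under the other settings from 1322 (12 arrays) to 2034 (median centring). The causes were not tested.

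Correlations of deviations between the CBE and PBS arrays of 1 number were 0.003, -0.193 and -0.026 in SV129 and 0.068, 0.08 and 0.196 in C57. The highest with another number were 0.212, 0.236 and 0.061 in SV129 and 0.123, -0.035 and -0.023 in C57. In SV129 no replicate stood higher with its own number. In C57 replicates 2 and 3 did. Whether numbers pair the samples is not settled in either strain. Of the 8 genes, 2 passed with the replicate block, which called 25 genes in SV129, 74 in C57 and 1818 between the PBS groups. Signal near the lower end of the scale limits what can be seen: 9889 of 22180 genes had a mean below the median of all values.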

Other observations

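Some further lists also leaned one way, and Itga4 was the 1 gene of these called in the difference. Proliferation genes had 20 of 26 differences below 0 and a median of -0.14, with list medians of 0.09 to 0.13 on the C57 CBE arrays and -0.03 to 0.01 on the SV129 CBE arrays, which do not overlap. Dcx, a microtubule protein of newborn neurons, had a difference of -0.52 (adjusted p = 0.329) and Mcm3, a replication helicase subunit, of -0.40 (adjusted p = 0.329). Integrins and leukocyte adhesion genes had 21 of 25 below 0 and a median of -0.10, with Itga4 among them. Respiratory chain genes had 25 of 33 above 0 with a median of 0.04. That median ran from -0.01 to 0.09 over the alternatives. Centring each array on its median moved the median difference of all genes to -0.05, a shift of like size. Potassium channels had 24 of 42 above 0 with a median of 0.08, a share close to that of all genes (11234 of 22180). Among glucocorticoid-responsive genes, Fkbp5 had a difference of 0.39 (95% confidence interval -0.11 to 0.89) and the list a median of 0.02.

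Serpina3n, an acute-phase protease inhibitor on the reactive astrocyte list, was chosen after its values were seen. It lay 3.01 higher in SV129 PBS than in C57 PBS (adjusted p = 0.000443). Its change was 0.14 in SV129 and 1.76 in C57, and the difference of -1.62 had adjusted p = 0.504, or 0.00307 without C3H CBE replicate 1 and 0.0507 in the 12 arrays alone.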
